A study of Mus musculus with 9 samples.

Results

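Protein O-mannosylation, the O-fucosylation of thrombospondin-type repeats and the O-GlcNAcylation of intracellular proteins each begin with a single sugar on serine or threonine. The part reported here held 4 of the genes that act in them, Pomgnt1, Pomt2, Pofut2 and Ogt. The array also measured other genes of these pathways, which are given further below. These 4 genes were chosen by name, with earlier results of these data known. Their probe sets were found by matching the RefSeq accession of each probe set to a RefSeq gene table. Each had 1 probe set, so the group held 4 of 1246 probe sets and 4 of 908 named genes.

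The RNA was measured on 9 GLYCOv4 arrays, a custom Affymetrix design read in 1 colour, with 3 arrays in each of 3 groups. They were hybridised with RNA of purified CD8 T cells from female B10D2 mice. The cells of all groups carried a transgenic T cell receptor. Deletion cells had been stimulated in vivo with their cognate antigen as a weak signal, anergy cells had been stimulated in vivo with it as a strong signal, and naive cells were the control. The comparison the study set out to make was that of deletion with anergy cells. The sources used here do not give the age of the mice, the antigen, the transgene's name or the time between stimulation and collection. Replicates carry numbers in the labels, with no word on separate animals, so the spread that p-values rest on may be technical.

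POMT2 works with POMT1 in the endoplasmic reticulum as the enzyme that places the initial mannose on proteins, and POMGNT1 then adds N-acetylglucosamine to that mannose in the Golgi. The best-known carrier of these glycans is alpha-dystroglycan, and loss of either enzyme in humans causes muscular dystrophy with brain and eye defects. POFUT2 adds fucose to folded thrombospondin-type repeats in the endoplasmic reticulum, whereas its relative POFUT1 adds fucose to EGF-like repeats such as those of Notch. OGT differs from all of these in that it acts in the cytosol and nucleus, where it attaches N-acetylglucosamine to many proteins and OGA removes it again. In mouse T cells OGT is known to be needed for the growth that follows receptor signalling.

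The genes lie on 4 chromosomes of the GRCm38.p6 assembly. Pomgnt1 spans 116150498 to 116159844 on chromosome 4, Pomt2 spans 87106861 to 87147968 on chromosome 12, Pofut2 spans 77259081 to 77269586 on chromosome 10, and Ogt spans 101640011 to 101684351 on chromosome X. The 250 bases before the start in the RefSeq promoter table, which can lie inside the span of the gene, are given for Pomgnt1 and Pofut2, which were lower in both stimulated groups, and for Ogt, which passed the test in neither. Capitals mark the GC box GGGCGG on either strand and the ETS motif CCGGAAGT on either strand. Each sequence is written 5′ to 3′ on the strand of the gene, and all 3 genes lie on the plus strand. They come from the RefSeq promoter table of GRCm38.p6, at chr4:116150268-116150517 for Pomgnt1, chr10:77259050-77259299 for Pofut2 and chrX:101639801-101640050 for Ogt.
Pomgnt1: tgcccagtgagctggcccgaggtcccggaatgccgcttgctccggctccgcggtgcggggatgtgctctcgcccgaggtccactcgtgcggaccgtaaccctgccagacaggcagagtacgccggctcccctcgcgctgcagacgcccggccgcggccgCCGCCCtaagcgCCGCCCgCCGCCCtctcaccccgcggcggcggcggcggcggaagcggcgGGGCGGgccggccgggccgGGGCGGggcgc
Pofut2: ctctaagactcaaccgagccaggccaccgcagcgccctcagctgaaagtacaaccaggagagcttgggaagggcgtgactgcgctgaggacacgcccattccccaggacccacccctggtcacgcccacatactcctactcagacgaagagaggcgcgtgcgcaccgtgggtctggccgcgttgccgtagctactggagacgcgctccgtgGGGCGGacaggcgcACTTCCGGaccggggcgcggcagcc
Ogt: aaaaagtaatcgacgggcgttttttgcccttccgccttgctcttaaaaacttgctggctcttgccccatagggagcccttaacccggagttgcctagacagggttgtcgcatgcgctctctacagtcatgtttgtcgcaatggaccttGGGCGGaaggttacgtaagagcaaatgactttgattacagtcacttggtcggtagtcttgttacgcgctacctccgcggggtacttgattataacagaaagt
The Pomgnt1 window held 5 GC boxes and had a GC content of 80.0%. The Pofut2 window held 1 GC box and 1 ETS motif at 67.2% GC, and the Ogt window held 1 GC box at 49.6% GC. Of 32851 RefSeq promoter windows of this length, 32.7% held a GC box and 2.88% held the ETS motif, and their median GC content was 52.4%. The E-box CACGTG, the CRE motif TGACGTCA, the AP-1 motif TGANTCA and the NFAT core GGAAA, also searched on both strands, were not found in these 3 windows. They were held by 6.02%, 1.55%, 6.75% and 55.6% of all windows. The NFAT core GGAAA and the GC box each occurred 1 time in the Pomt2 window. Pomgnt1 and Ogt each have a second listed start, and the other Pomgnt1 window held 1 E-box and 1 NFAT core and no GC box.

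Array values were log2 expression from RMA, which corrects background, normalizes across arrays and summarises the probes of a set. The array medians lay between 4.44 and 4.58, and within groups the correlation between arrays over all probe sets was 0.995 to 0.998. The widest scatter around the group means was that of anergy replicate 3, whose residual SD (log2 scale) was 0.203 against 0.116 to 0.157 on the others. Of 10 markers listed for CD8 T cells the array measured 1, the adhesion receptor Cd2, whose level on the linear scale was 904 to 1333 in deletion cells, 644 to 714 in anergy cells and 2957 to 3281 in naive cells. Probe sets named Cd8a, Cd8b1 or Cd3e were not found, so the labelled cell type could not be checked against its defining markers. Markers of other cells were few on the array. For B cells, 3 of 8 listed markers were measured. Their summed linear level was 398 to 568 in deletion, 368 to 426 in anergy and 603 to 674 in naive cells. Against naive, 2 rose and 1 fell in deletion, and 1 rose and 1 fell in anergy. Cd72 fell (log2 change -1.56 in deletion and -1.64 in anergy), while Cd22 rose (1.17 and 0.98) and Cxcr5 rose in deletion (0.64). In naive cells Cd72 had the highest log2 values of the 3 (8.77 to 8.99), and the sum was mostly Cd72. For macrophages and dendritic cells, 9 of 16 were measured, with sums of 203 to 237 in deletion, 210 to 221 in anergy and 247 to 258 in naive cells; 0 rose and 1 fell in deletion, and 1 rose and 1 fell in anergy. For endothelial and stromal cells, 3 of 7 were measured, with sums of 477 to 546 in deletion, 277 to 347 in anergy and 369 to 402 in naive cells. Pecam1 rose in deletion (log2 change 0.43, limma adjusted p = 0.00846) and fell in anergy (-0.30, adjusted p = 0.0405) against naive. It was higher in deletion than in anergy (0.72, adjusted p = 0.00234). Dcn (log2 values 2.26 to 2.54) and Lum (1.94 to 2.00) lay below the array medians and passed in no comparison. The sums of this list were thus nearly all Pecam1. For natural killer cells (2 of 4 measured) the sums were 16.1 to 21.0 in deletion, 21.8 to 22.5 in anergy and 16.8 to 19.6 in naive cells, and for erythroid cells and granulocytes (3 of 7) they were 39.6 to 42.6 in deletion, 33.7 to 41.2 in anergy and 38.2 to 44.3 in naive cells. Of these, Klrk1 rose in anergy (0.79, limma adjusted p = 0.0014) and Siglecf in deletion (0.33, adjusted p = 0.0293) and in anergy (0.39, adjusted p = 0.00856), all against naive. Klrk1 (log2 values 2.78 to 3.74) and Siglecf (2.22 to 2.86) lay below the array medians. Klra8, Cxcr2 and Csf3r of the same lists passed in no comparison. The part of these markers in the results that follow was not tested. In bulk RNA, fewer cells of a type and less RNA per cell cannot be told apart.

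**Figure D1:**
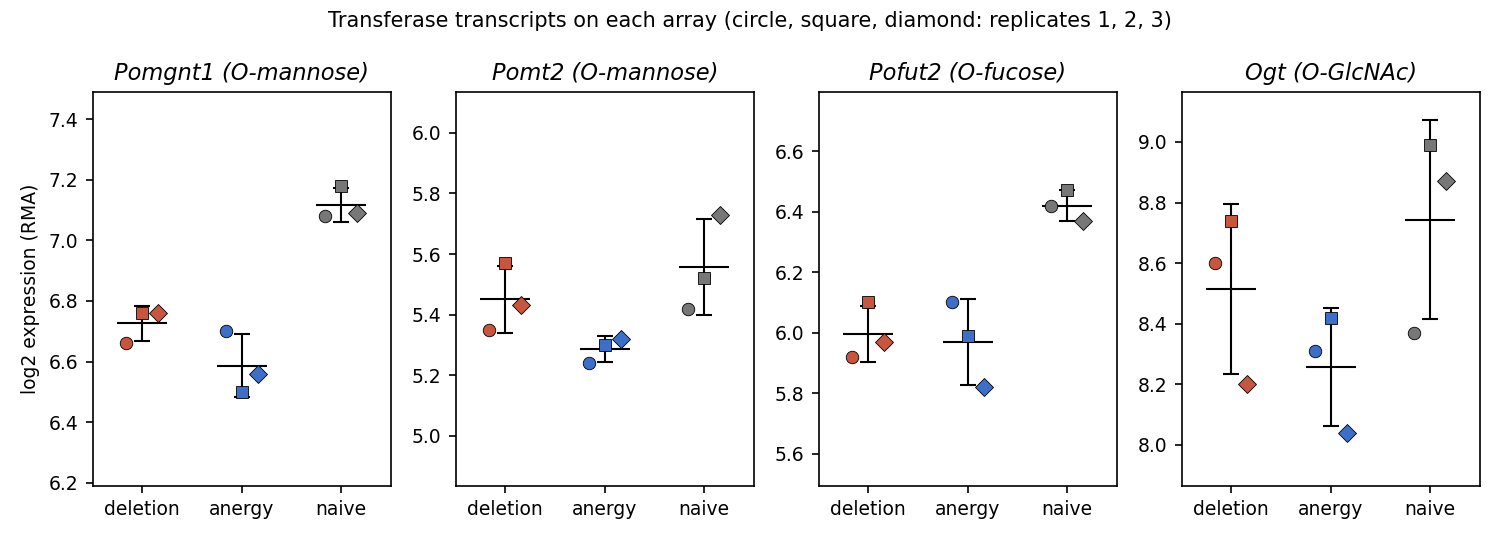
Log2 expression of the 4 transferase genes on each array, with deletion, anergy and naive cells from left to right. Points are single arrays, the long horizontal bar is the group mean and the whiskers are 1 SD (n = 3); each panel spans the same height of 1.3 log2 units. For Pomgnt1 and Pofut2 all 3 naive arrays lie above all 6 stimulated arrays, whereas the Ogt groups overlap.

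Pomgnt1 and Pofut2 transcripts were lower in both deletion and anergy cells than in naive cells, Pomt2 was lower in anergy cells by a small margin, and Ogt passed the test in no comparison. No member differed past the threshold between deletion and anergy. With the values as deposited, the group means of all 4 genes stood in the order anergy, deletion, naive from low to high. This order was shared by 336 of the 1246 probe sets (27%). After quantile normalization deletion and anergy changed places in it for Pofut2. Deletion and anergy, which are neighbours in that order, did not pass the test for any of the 4, nor did deletion and naive for Pomt2 and Ogt.

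Pomgnt1, which extends the O-linked mannose, was measured at log2 values of 6.66, 6.76 and 6.76 in deletion replicates 1 to 3, 6.70, 6.50 and 6.56 in anergy replicates 1 to 3, and 7.08, 7.18 and 7.09 in naive replicates 1 to 3. The naive arrays were all higher than every stimulated array, and the deletion and anergy arrays overlapped. Means were 6.73 ± 0.06 in deletion, 6.59 ± 0.10 in anergy and 7.12 ± 0.06 in naive cells (SD, n = 3 each). Deletion cells were 1.31-fold lower than naive cells (95% limits 1.18 to 1.46), a log2 change of -0.39 ± 0.07 (SE; limma adjusted p = 0.00266). Anergy cells were 1.44-fold lower than naive cells (1.30 to 1.61), at -0.53 ± 0.07 (limma adjusted p = 0.000268). Both calls held in all 18 settings run, with adjusted p of at most 0.0154 and 0.00203.

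Pomt2, a subunit of the enzyme that starts O-mannose glycans, had log2 values of 5.35, 5.57 and 5.43 in deletion cells, 5.24, 5.30 and 5.32 in anergy cells, and 5.42, 5.52 and 5.73 in naive cells. All anergy arrays were below all naive arrays and below all deletion arrays, while deletion and naive overlapped. The means were 5.45 ± 0.11 in deletion, 5.29 ± 0.04 in anergy and 5.56 ± 0.16 in naive cells (SD, n = 3 each). Anergy cells were 1.21-fold lower than naive cells (1.05 to 1.38), with a log2 change of -0.27 ± 0.09 (SE; limma adjusted p = 0.0496), just past the threshold of 0.05. This call held in 8 of 18 settings, over which the adjusted p ran from 0.0271 to 0.172. It was lost without deletion replicate 1 (adjusted p = 0.0584) or 3 (0.0704), which enter through the shared spread, without anergy replicate 1 (0.137), 2 (0.0998) or 3 (0.074), and without naive replicate 2 (0.0942) or 3 (0.172). It was also lost with an intensity trend (0.068), without moderation of the variance (0.102) and in a fit of the 2 groups alone (0.0753). The change of deletion cells from naive was -0.11 ± 0.09, with 95% limits of -0.31 to 0.09 (adjusted p = 0.552).

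Pofut2, the O-fucosyltransferase of thrombospondin-type repeats, had log2 values of 5.92, 6.10 and 5.97 in deletion cells, 6.10, 5.99 and 5.82 in anergy cells, and 6.42, 6.47 and 6.37 in naive cells. The 3 naive arrays lay above all stimulated arrays, and the stimulated groups covered nearly the same range. The means were 5.997 ± 0.093 in deletion, 5.97 ± 0.14 in anergy and 6.42 ± 0.05 in naive cells (SD, n = 3 each). Deletion cells were 1.34-fold lower than naive cells (1.18 to 1.52), at a log2 change of -0.42 ± 0.08 (SE; limma adjusted p = 0.0045), and anergy cells 1.37-fold lower (1.20 to 1.55), at -0.45 ± 0.08 (limma adjusted p = 0.00215). Both calls held in all 18 settings, with adjusted p of at most 0.0234 and 0.0123.

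Ogt, which modifies nuclear and cytosolic proteins, had log2 values of 8.60, 8.74 and 8.20 in deletion cells, 8.31, 8.42 and 8.04 in anergy cells, and 8.37, 8.99 and 8.87 in naive cells. All pairs of groups overlapped, and naive replicate 1 lay below the highest array of either stimulated group. Its probe set carries the suffix s, given to sets that can bind more than 1 transcript. The probe sets of Oga, Dpm2 and Slc35a3, described below, carry the same suffix. The means were 8.51 ± 0.28 in deletion, 8.26 ± 0.20 in anergy and 8.74 ± 0.33 in naive cells (SD, n = 3 each), and the standard error of a difference was 0.18, against a median of 0.087 over all probe sets. The log2 change from naive was -0.23 in deletion cells (95% limits -0.64 to 0.18; limma adjusted p = 0.526) and -0.49 in anergy cells (-0.90 to -0.08; adjusted p = 0.0865). Without naive replicate 1 the change of anergy cells passed, at -0.67 (adjusted p = 0.0178), and that of deletion cells was -0.42 (adjusted p = 0.15). The deletion change was smaller, at -0.073, without deletion replicate 3 and, at -0.11, without naive replicate 2.

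**Figure D2:**
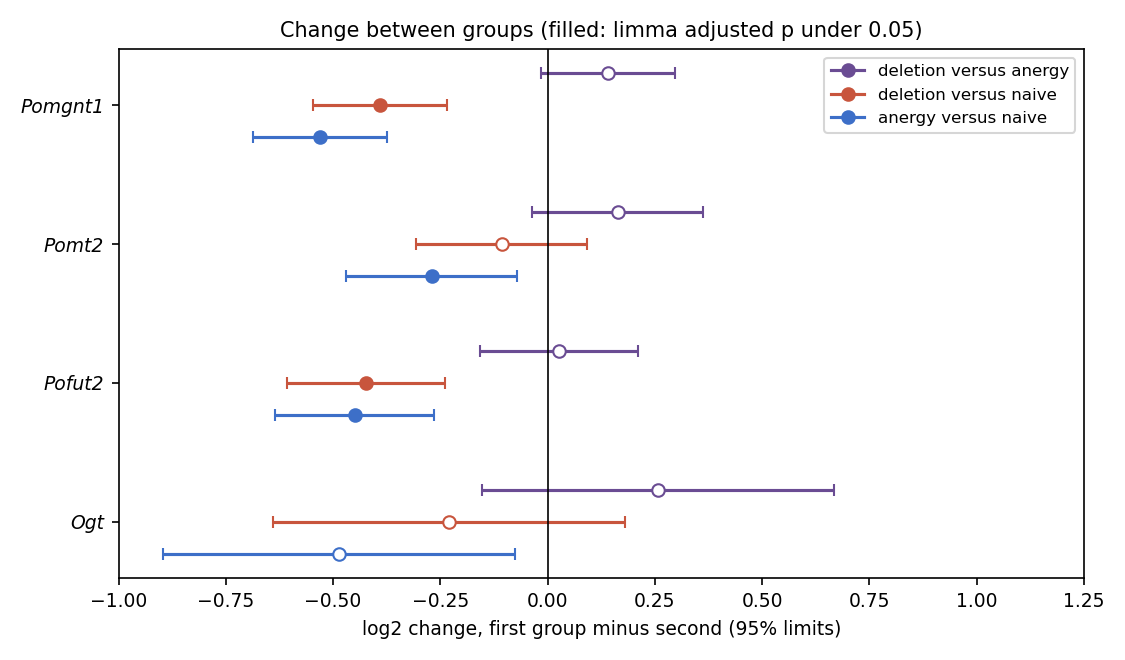
Log2 change of each gene in the 3 comparisons, first-named group minus second, with 95% limits from the limma fit over 9 arrays. Filled points passed an adjusted p of 0.05: Pomgnt1 and Pofut2 against naive in both stimulated groups, and Pomt2 in anergy against naive; all 4 intervals of deletion against anergy include 0.

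Among all probe sets, 10.5% were called lower and 8.51% higher in deletion than in naive cells, 19.0% in all, and 2 of the 4 members were lower and 0 higher. In anergy against naive, 16.1% were called lower and 10.8% higher, 26.8% in all, and 3 of the 4 members were lower and 0 higher. Groups did not overlap, with the stimulated arrays lower, for 17.3% of all probe sets in deletion against naive and for 2 of 4 members, and for 20.7% and 3 of 4 members in anergy against naive. The median log2 change of the 4 members was -0.31 in deletion and -0.47 in anergy against naive, beside -0.02 and 0.01 for all probe sets. Both comparisons use the same naive arrays. Within the list of all 1246 changes ordered from the most negative, Pofut2 and Pomgnt1 held ranks 107 and 117 in deletion against naive and ranks 152 and 130 in anergy against naive, so their changes were moderate among those on this array.

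**Figure D3:**
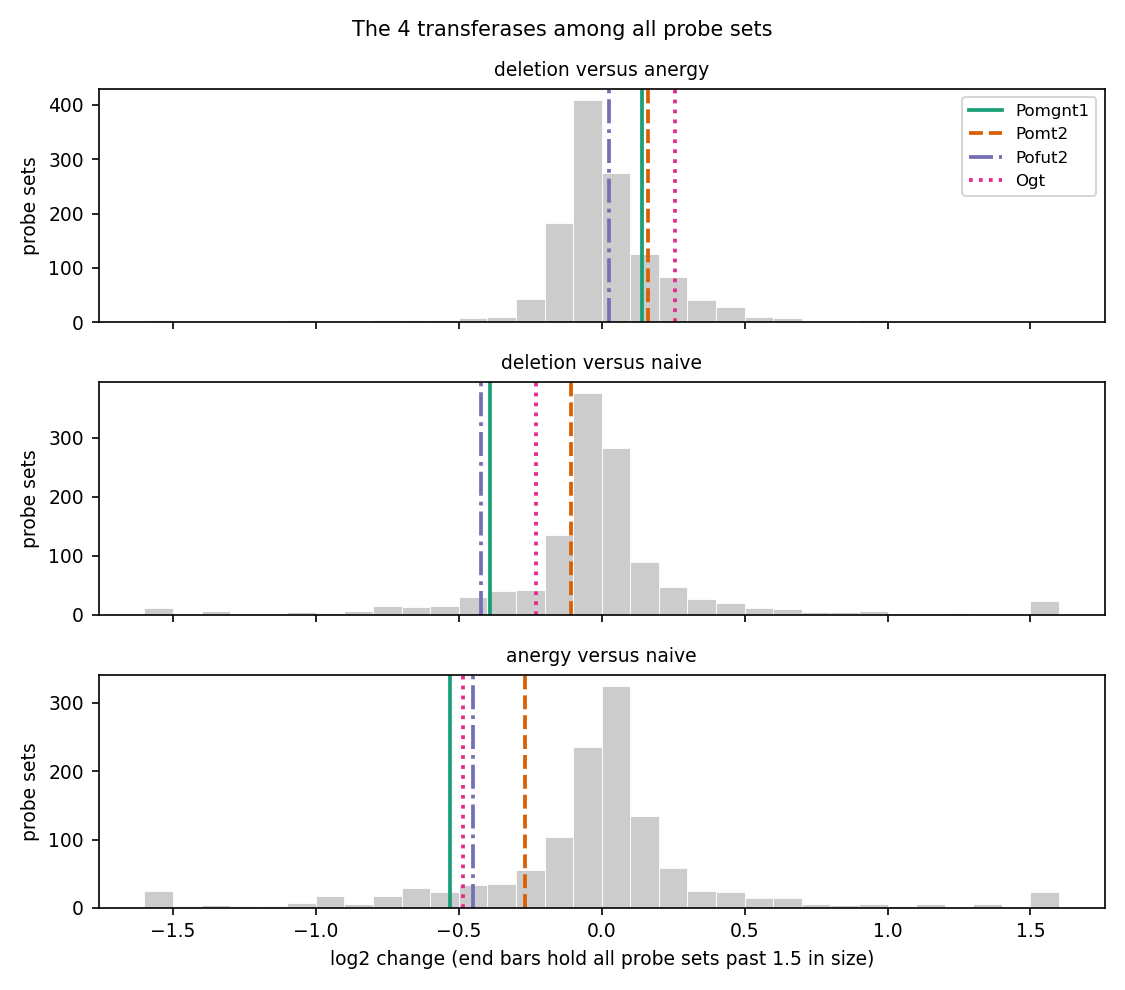
Distribution of the log2 change of all 1246 probe sets in bins of 0.1 in each comparison (the end bars hold all changes past 1.5 in size), with vertical lines at the 4 genes. The lines lie below 0 in both comparisons with naive cells and at 0.03 to 0.26 in deletion against anergy, within the bulk of the probe sets.

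The comparison of deletion with anergy cells gave no call among the members. In this comparison 3.37% of all probe sets were called, 42 of 1246, of which 26 were higher and 16 lower in deletion; the split was 13 higher and 13 lower after median centring and 32 higher and 38 lower after quantile normalization. Pomgnt1 was 0.14 higher in deletion on the log2 scale (95% limits -0.02 to 0.30; limma adjusted p = 0.382), Pomt2 0.16 higher (-0.04 to 0.36; adjusted p = 0.42), Pofut2 0.03 higher (-0.16 to 0.21; adjusted p = 0.901) and Ogt 0.26 higher (-0.15 to 0.67; adjusted p = 0.538). The upper limits, 0.30 for Pomgnt1 and 0.21 for Pofut2, were smaller in size than the estimated change of either gene between deletion and naive cells. The 95% limits of that change were -0.55 to -0.23 for Pomgnt1 and -0.61 to -0.24 for Pofut2. Whether the changes differed in size was not tested. Deletion minus anergy between arrays of the same replicate number, a pairing the labels do not state, was 0.29, 0.32 and 0.16 for Ogt. For Pomt2 it was 0.11, 0.27 and 0.11, where any matching gives positive values because the deletion and anergy arrays did not overlap. How often all probe sets show 1 direction in every pair was not counted. For Pomgnt1 it was -0.04, 0.26 and 0.20, and for Pofut2 -0.18, 0.11 and 0.15. With replicate number as a block the adjusted p was 0.416 for Ogt, 0.315 for Pomt2, 0.367 for Pomgnt1 and 0.882 for Pofut2. For Pomt2, whose deletion and anergy arrays did not overlap, such separation was seen for 16.6% of all probe sets. The small value of Pofut2 changed sign after quantile normalization (-0.073), with array weights (-0.039), without deletion replicate 2 (-0.025) and without anergy replicate 3 (-0.048). The other 3 genes kept their sign in all 18 settings, but the value of Pomgnt1 shrank to 0.02 after quantile normalization (adjusted p = 0.907).

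Pomt1 (partner of Pomt2), Oga (which opposes Ogt) and Pofut1 (relative of Pofut2) did not pass in either comparison with naive cells as deposited. Pomt1, the other subunit of the O-mannosyltransferase, had log2 values of 6.26, 6.20 and 6.14 in deletion, 6.34, 6.27 and 6.19 in anergy and 6.19, 6.10 and 6.11 in naive cells. Its change from naive was 0.07 ± 0.06 in deletion and 0.13 ± 0.06 in anergy (SE; limma adjusted p = 0.627 and 0.181), and after quantile normalization it passed as higher in anergy (0.20, adjusted p = 0.0398). Pofut1, the O-fucosyltransferase of EGF-like repeats, had means of 7.49 ± 0.13 in deletion, 7.27 ± 0.22 in anergy and 7.58 ± 0.22 in naive cells (SD), with log2 changes from naive of -0.09 in deletion and -0.31 in anergy that did not pass (adjusted p = 0.804 and 0.133), though with a replicate block it passed as lower in anergy (-0.31, adjusted p = 0.0324). Oga, which removes O-GlcNAc, had means of 10.67 ± 0.09 in deletion, 10.47 ± 0.15 in anergy and 10.65 ± 0.10 in naive cells, with changes from naive of 0.02 in deletion and -0.18 in anergy that did not pass (adjusted p = 0.95 and 0.208). Whether Pomt2 and Pomt1, or Pofut2 and Pofut1, changed by different amounts was not tested.

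In O-mannosylation and its carrier, 10 of 21 listed genes were measured, Pomgnt1 and Pomt2 included. In deletion against naive 3 of the 10 fell, 1 rose and 6 did not pass; in anergy against naive 4 fell, 0 rose and 6 did not pass. The median log2 changes were -0.045 in deletion and -0.032 in anergy, beside -0.02 and 0.01 for all probe sets. The shares called over all probe sets were 10.5% lower and 8.51% higher in deletion, and 16.1% lower and 10.8% higher in anergy. B3galnt2, which adds N-acetylgalactosamine to the glycan of dystroglycan that binds laminin, fell by 0.57 in deletion and by 0.78 in anergy (adjusted p = 0.0202 and 0.00235). Its log2 value on anergy replicate 3 was 6.47, against 7.07 and 7.03 on the other anergy arrays, and without that array the anergy change was -0.59 (adjusted p = 0.00104). Dag1, the dystroglycan core protein itself, had log2 values of 6.96, 7.17 and 6.93 in deletion, 6.76, 6.94 and 6.82 in anergy and 7.44, 7.40 and 7.24 in naive cells, with no overlap of either stimulated group with naive. It fell by 0.34 in deletion and by 0.52 in anergy on the log2 scale (adjusted p = 0.0204 and 0.00119). Dpm2, a subunit of the synthase of the mannose donor, rose by 0.25 in deletion (adjusted p = 0.0327) and had a change of 0.05 in anergy. In deletion B3galnt2 was no longer called without deletion replicate 1 (adjusted p = 0.0795), naive replicate 1 (0.0826) or naive replicate 2 (0.0626), or without moderation of the variance (0.093). Dag1 was no longer called without deletion replicate 1 (0.0795), deletion replicate 3 (0.0815), naive replicate 1 (0.0831) or naive replicate 2 (0.075), or without moderation (0.0616). Dpm2 held in 10 of 18 settings and was lost without deletion replicate 1 (0.103) or 2 (0.116) without naive replicate 1 (0.0758), 2 (0.103) or 3 (0.0844), after median centring (0.114), with an intensity trend (0.0782) and without moderation (0.0538). In anergy B3galnt2 and Dag1 were called in all 18 settings. Quantile normalization moved the anergy counts to 4 lower and 4 higher, the 4 being Pomt1, B4gat1, Dpm2 and Gmppb, whereas median centring left 4 lower and 0 higher. Without anergy replicate 3 the counts were 3 lower and 0 higher.

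**Figure D4:**
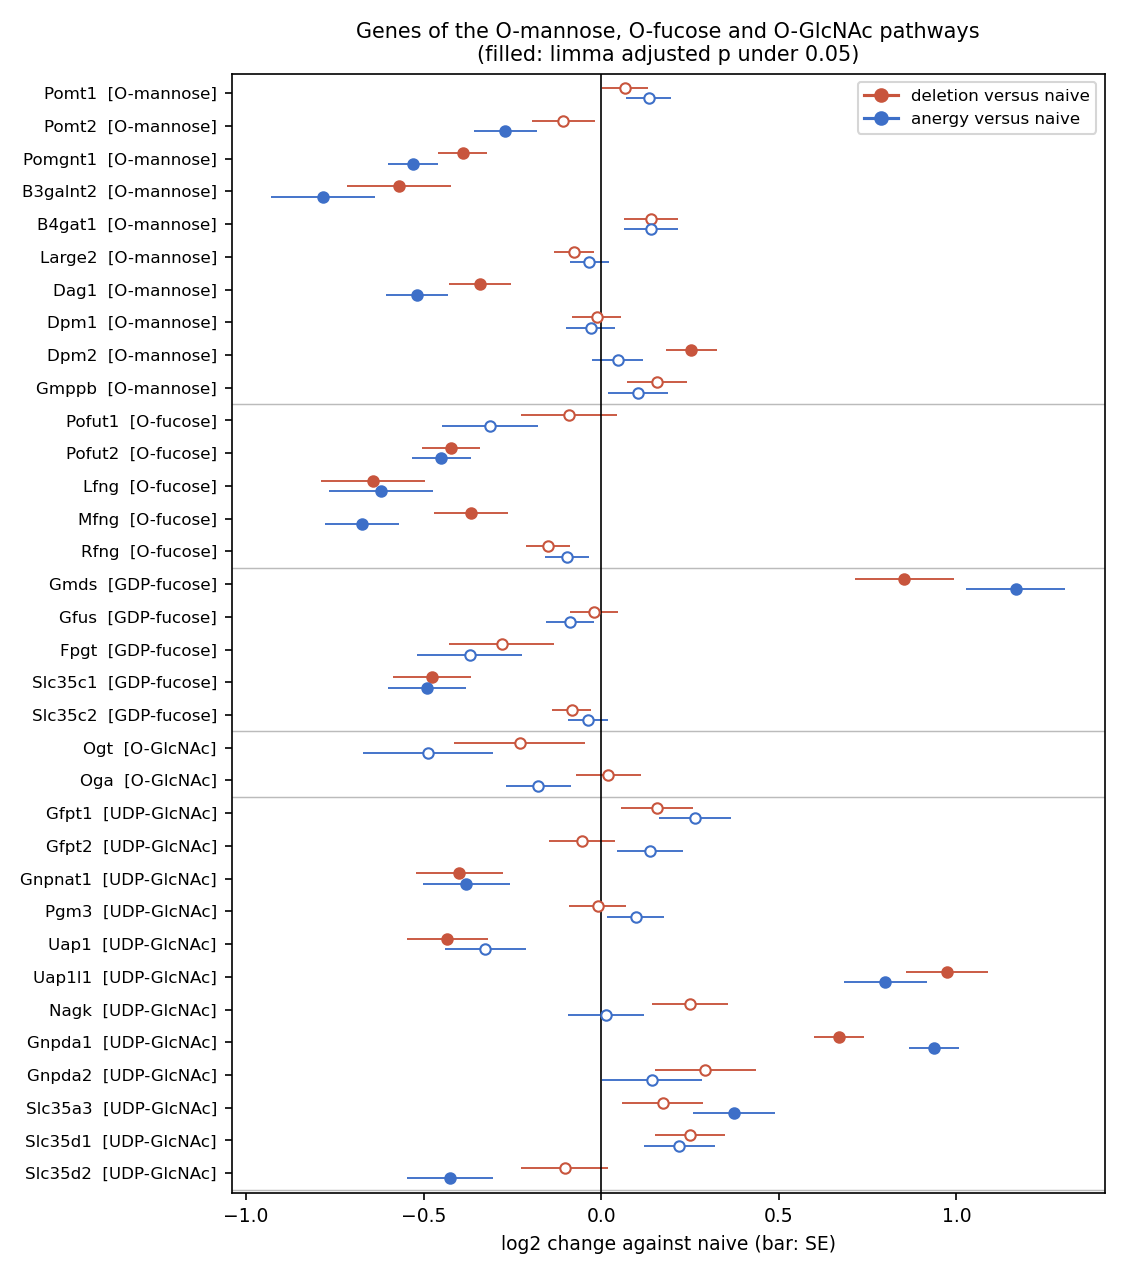
Log2 change against naive cells of every measured gene of the 5 pathway lists, for deletion (upper point of each pair) and anergy (lower point), with bars of 1 SE. Filled points passed an adjusted p of 0.05; Gmds, Uap1l1 and Gnpda1 stand to the right and B3galnt2, Lfng and Mfng to the left.

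Of the O-fucose list 5 of 12 genes were measured, and 3 fell and 0 rose in either stimulated group against naive, beside 10.5% of all probe sets lower in deletion and 16.1% in anergy. These were Pofut2 and the fringe enzymes Lfng and Mfng, which extend O-fucose on Notch receptors. Lfng fell by 0.64 in deletion and by 0.62 in anergy (adjusted p = 0.0105 and 0.00936), and Mfng fell by 0.37 in deletion and by 0.67 in anergy (adjusted p = 0.0323 and 0.000696). The list medians were -0.37 in deletion and -0.45 in anergy, beside -0.02 and 0.01 for all probe sets. In deletion the call of Lfng was lost without naive replicate 3 (adjusted p = 0.0504), and without moderation its call was lost in deletion (0.0645) and in anergy (0.0531). That of Mfng was lost without deletion replicate 1 (0.0988) or 3 (0.122), without naive replicate 1 (0.0903), 2 (0.0898) or 3 (0.0864), after median centring (0.0811) and without moderation (0.0988). With a replicate block 4 genes of the list were lower in anergy, Pofut1 being the fourth. No gene of the thrombospondin-repeat list, 12 possible carriers of the POFUT2 modification, was measured.

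Of 5 measured genes that supply the fucose donor, 1 rose, 1 fell and 3 did not pass in either stimulated group against naive. The corresponding shares of all probe sets were 8.51% higher and 10.5% lower for deletion, and 10.8% higher and 16.1% lower for anergy. Gmds, the dehydratase that commits GDP-mannose to GDP-fucose, rose by 0.85 in deletion and by 1.17 in anergy on the log2 scale (limma adjusted p = 0.00152 and 0.00014). Its log2 values were 7.15, 7.04 and 7.02 in deletion, 7.62, 7.49 and 7.04 in anergy and 6.22, 6.37 and 6.06 in naive cells. Slc35c1, the GDP-fucose carrier of the Golgi, fell by 0.48 in deletion and fell by 0.49 in anergy (adjusted p = 0.0111 and 0.00716), the deletion call lost without naive replicate 2 (0.0523) or without moderation (0.0569). Fpgt, of the salvage route to GDP-fucose, did not pass as deposited but did so as lower without deletion replicate 2, at -0.44 in deletion (adjusted p = 0.0433) and -0.37 in anergy (0.0395), and in anergy with a replicate block (0.0168).

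For UDP-GlcNAc, the donor that both OGT and POMGNT1 use, 12 of 13 listed genes were measured. In deletion against naive 2 rose and 2 fell, and in anergy 3 rose and 2 fell, with median log2 changes of 0.17 in deletion and 0.14 in anergy, beside -0.02 and 0.01 for all probe sets. Among all probe sets the shares called were 8.51% (higher) and 10.5% (lower) for deletion, and 10.8% (higher) and 16.1% (lower) for anergy. After quantile normalization the deletion counts were 4 higher, with Nagk (adjusted p = 0.0458) and Gnpda2 (0.0232) added, and 1 lower, and the anergy counts were 3 higher and 1 lower. Gnpda1, a deaminase that runs against the synthesis of this donor, rose by 0.67 in deletion and by 0.94 in anergy (adjusted p = 7.73e-05 and 5.05e-06), and Uap1l1, a relative of the enzyme of the last step, rose by 0.97 in deletion and by 0.80 in anergy (adjusted p = 0.000197 and 0.000511). Both were called in all 18 settings in either comparison. Uap1, the enzyme of the last step, fell by 0.43 in deletion (adjusted p = 0.0228) and had a change of -0.33 in anergy (adjusted p = 0.062). The deletion call was lost without deletion replicate 1 (0.0877) or 2 (0.0626), without naive replicate 1 (0.0611) or 2 (0.0932) after median centring (0.0555) and without moderation (0.0898). In anergy Uap1 passed with a filter on dim probe sets (adjusted p = 0.0484), with a replicate block (0.0358), without anergy replicate 2 (-0.42, 0.0263) and without naive replicate 3 (-0.40, 0.0477). Gnpnat1, an acetyltransferase of the pathway, fell by 0.40 in deletion and by 0.38 in anergy (adjusted p = 0.0475 and 0.0439), each in 8 of 18 settings. Its deletion call was lost without any 1 of the deletion arrays, the naive arrays or anergy replicate 2 (adjusted p = 0.0506 to 0.156), and its anergy call without any 1 of the deletion arrays, anergy replicate 3, or naive replicate 1 or 2 (0.0543 to 0.151). The carriers Slc35a3 and Slc35d2 passed in anergy alone among the 2 comparisons, at 0.37 and -0.43 (adjusted p = 0.0367 and 0.0255), in 9 and 12 of 18 settings. Slc35a3 was lost without deletion replicate 1, anergy replicate 1 or 2, or naive replicate 1 or 3 (adjusted p = 0.0568 to 0.127), and Slc35d2 without anergy replicate 2 or 3, or naive replicate 2 or 3 (0.0768 to 0.0971). The difference between deletion and anergy did not pass for either (adjusted p = 0.439 and 0.219). Gfpt1, which controls entry into the pathway, had changes of 0.16 in deletion and 0.26 in anergy that did not pass (adjusted p = 0.41 and 0.0943), though without anergy replicate 3 its anergy change was 0.38 (adjusted p = 0.00436). The anergy counts were then 4 higher and 0 lower.

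Of the 5 lists together, 0 genes passed in deletion against anergy with the values as deposited, beside 3.37% of all probe sets. Gmds passed there as lower in deletion after quantile normalization (-0.44, adjusted p = 0.0343), with array weights (-0.43, adjusted p = 0.0302) and without anergy replicate 3 (-0.49, adjusted p = 0.0426). Gnpda1 did so after quantile normalization (-0.33, adjusted p = 0.0114) and with array weights (-0.32, adjusted p = 0.0159), and Slc35d2 as higher without anergy replicate 1 (0.47, adjusted p = 0.0181).

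The genes whose log2 values ran most like each member over the 9 arrays were found by Pearson's r among 907 other named genes. The 9 arrays form 3 groups, so r mostly reflects the group means, and it is given as a description. Pomgnt1 was most like Il2rg, the common gamma chain of cytokine receptors (r = 0.988), the heparan sulfate proteoglycan Agrn (0.983) and Alg1, a mannosyltransferase of the N-glycan precursor (0.975). Il2rg had log2 means of 11.80 in deletion, 11.69 in anergy and 12.29 in naive cells, and so the same order of groups as Pomgnt1. Pofut2 was most like the adhesion ligand Icam2 (0.987), the interleukin-7 receptor Il7r (0.982) and Galnt2, which starts O-GalNAc glycans (0.973). Il7r had means of 7.96 in deletion, 7.82 in anergy and 10.21 in naive cells. Pomt2 was most like Btg2 (0.932), Lgals4 (0.869) and Ccl22 (0.829), and Ogt most like Alg12 (0.906), Ugcg (0.891) and Gbf1 (0.889). Among the members themselves r was highest for Pomgnt1 and Pofut2 (0.939) and lowest for Pomt2 and Pofut2 (0.587).

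**Figure D5:**
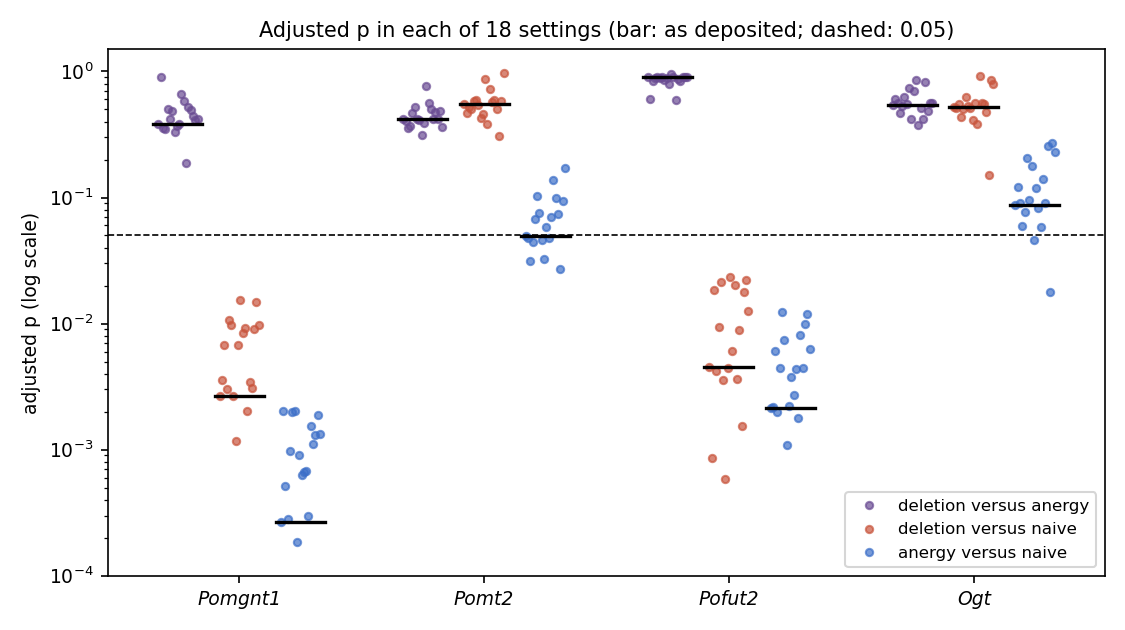
Adjusted p of the 4 genes in each comparison and in each of 18 settings, on a log axis. Each point is a setting, the black bar is the value as deposited and the dashed line is 0.05; all points of Pomgnt1 and Pofut2 against naive lie below the line, and those of Pomt2 and Ogt in anergy against naive lie on both sides of it.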

How the data were processed

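RNA of 9 samples was extracted with Trizol and labelled with biotin as cRNA from 0.5 micrograms, per the labels' protocols. The authors deposited log2 values, 1 per probe set and array, made with RMA, per the submitters' processing notes. Its version, any filter and the array's annotation are not given in the sources used here. That the scale is log2 follows from RMA and from the range of 1.67 to 13.86. Calls of presence or absence were not made for any probe set, and the number of arrays limits the precision.

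Probe sets were named through a RefSeq gene table of GRCm38.p6 by accession without version, which named 962 of 1246 (77.2%) as 908 genes. Where a gene had several, the brightest probe set was used. Values were used as deposited, with no filter, and a linear model of the 3 groups was fitted to all 9 arrays, without a block, with lmFit and eBayes of limma 3.58.1 (R 4.3.3; 6 residual and 3.65 prior degrees of freedom). Tests were two-sided, with Benjamini-Hochberg adjustment over the 1246 probe sets of a comparison and a threshold of 0.05. The fit was tested on simulated data. The members and lists were chosen with earlier results of these data known. The text names every member, each gene of the 5 measured lists that passed, and the 3 genes most like each member; Pomt1, B4gat1, Gmppb, Pofut1, Fpgt, Oga, Gfpt1, Nagk, Gnpda2 and the markers named were added after their values were seen. A gene was left out of the O-mannosylation list and is not reported here.

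Deviations from the group mean correlated between deletion and anergy arrays of the same number at r = 0.195, 0.270 and 0.280. Deletion 2 with anergy 1 stood at 0.160, and the other deletion and anergy arrays of different numbers at -0.3035 to -0.0395. Deletion 1 with naive 3, also of different numbers, stood at 0.2865. These values are not independent, because deviations within a group cancel out. The labels state no pairing, and whether the numbers pair these arrays was not tested. The fit reported has no block, and the fit with the replicate number as a block was an alternative. The alternatives were 2 scalings, a filter, 2 variance models, a fit of 2 groups, array weights, a replicate block, a fold limit for counts, and each array left out. Those for the lists were added after seeing the data.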

Additional observations from a re-analysis of the deposited data

How the results depend on the processing

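Of 12 member results (4 genes in 3 comparisons), 9 kept their direction and their side of the threshold under all 17 alternatives. The exceptions were Pofut2 in deletion against anergy, and Pomt2 and Ogt in anergy against naive. Pofut2 changed sign after quantile normalization (-0.073), with array weights (-0.039) and in 2 of the fits that left out an array (range -0.048 to 0.092). The log2 change of Pomt2 stayed at -0.27 with an intensity trend, without moderation and in a fit of the 2 groups alone and lost its call there, and ran from -0.34 to -0.18 with each array left out. Ogt passed without naive replicate 1, in a range of -0.67 to -0.36 over the arrays left out, and its change of -0.49 also passed under a replicate block (adjusted p = 0.0461). The cause of these shifts was not tested. Same-numbered anergy and naive arrays correlated at -0.154, 0.274 and 0.175 in their deviations. Deletion and naive arrays of the same number correlated at -0.136, 0.119 and -0.143, and the labels state no pairing there either. The block changed no other member call, including those in deletion against anergy.

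Counts over all probe sets for deletion against anergy, 26 higher and 16 lower, moved most. They were 13 higher after median centring, 38 lower after quantile normalization, 5 higher and 9 lower without moderation, 8 higher in a fit of the 2 groups alone, and 44 higher and 31 lower with array weights. They ran from 8 to 30 higher and from 12 to 19 lower with each array left out, and 5 higher and 6 lower differed by at least 2-fold. Against naive, 32 of 106 higher and 27 of 131 lower did so in deletion, and 38 of 134 and 42 of 200 in anergy. No scaling moved the median of all probe sets by over 0.1, but some single genes moved more. Quantile normalization took anergy against naive from -0.53 to -0.39 for Pomgnt1 and from -0.49 to -0.36 for Ogt. It took Pofut2 from -0.45 to -0.36 and Pomt2 from -0.27 to -0.26. Median centring gave -0.58 for Pomgnt1, -0.53 for Ogt, -0.50 for Pofut2 and -0.32 for Pomt2. With no measure of signal over background, changes of dim probe sets may be understated.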
